A study of Mus musculus with 12 samples.

Results

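The glycocalyx is the sugar-rich coat on the blood-facing side of the endothelium. The genes described here are 10 that build this coat: the syndecans Sdc2, Sdc3 and Sdc4, the glypican Gpc1, the hyaluronan synthase Has2, the heparan sulfate enzymes Ext1, Ndst1 and Hs6st1, and the sialomucins Podxl and Emcn. They were chosen by symbol, and all 10 were found among the 24015 symbols of the table. Old mice (19 months) gave 6 samples and young mice (3 months) gave 6. Mice of both ages were wild type C57BL/6 with no treatment named. Each sample pooled cortex and hippocampus of 2 mice, from which brain endothelial cells were sorted by flow cytometry, and RNA was sequenced after SMART-seq v4 amplification. Whether the pools share animals is not stated in the labels, and the p-values below therefore speak only for the variation among these 12 samples.

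Syndecans span the membrane and glypicans are anchored to it by a lipid, and both carry heparan sulfate, a sulfated sugar chain that binds growth factors, chemokines and antithrombin. The chain is started on a short linker, extended by exostosins, and then sulfated in the Golgi by enzymes of which Ndst1 acts early and Hs6st1 later. Hyaluronan is a chain with no protein core, made at the cell surface, and sialomucins carry dense, negatively charged O-linked sugars.

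Libraries held 25809499 to 40393814 reads in genes. A value below is a normalized count, the reads of a gene divided by a size factor of its sample. The summed level of 10 general endothelial markers was 434800 to 538530 in old and 486154 to 552189 in young samples (exact permutation p = 0.0238, and 0.0595 adjusted over 10 marker sums). None of the 10 was at 0, 8 had negative log2 folds, 4 had an unadjusted p under 0.05, and 1 of them, the adherens junction cadherin Cdh5, fell (log2 fold -0.36, limma adjusted p = 0.0234). Old 7, old 9 and young 9 had the lowest slopes of log2 values on the GC content of transcripts. Their slopes were -0.08, -0.17 and -0.17 log2 units per 10 points of GC content, against -0.02 to 0.13 in the other 9 samples (over 11804 genes). The other slopes were also spread, with young 2 and young 5 at -0.02 and old 1 and young 1 highest, at 0.13 and 0.11. Results that rest on old 7, old 9 and young 9 are given with and without them. Because the samples are bulk RNA, fewer cells of a type and less RNA per cell cannot be told apart.

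The start regions of Sdc4 and Gpc4, the core proteins that rose with age, are shown beside that of Emcn, an abundant member that did not pass the test. RefSeq windows of 300 bases around the annotated start (GRCm38.p6, a later build than the mm9 named for these data) were found for 4 of the 10 members: Sdc3, Sdc4, Hs6st1 and Emcn. Capitals mark matches to the motifs searched. The windows are chr2:164443139-164443438 on the minus strand for Sdc4, chrX:52164874-52165173 on the minus strand for Gpc4, and chr3:137340828-137341127 on the plus strand for Emcn.
Sdc4: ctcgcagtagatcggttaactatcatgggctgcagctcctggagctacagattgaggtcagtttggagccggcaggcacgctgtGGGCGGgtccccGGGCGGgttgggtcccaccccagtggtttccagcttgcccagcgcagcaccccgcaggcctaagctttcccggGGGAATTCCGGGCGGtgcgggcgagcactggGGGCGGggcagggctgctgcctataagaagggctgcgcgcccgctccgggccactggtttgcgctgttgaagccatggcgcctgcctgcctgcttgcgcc
Gpc4: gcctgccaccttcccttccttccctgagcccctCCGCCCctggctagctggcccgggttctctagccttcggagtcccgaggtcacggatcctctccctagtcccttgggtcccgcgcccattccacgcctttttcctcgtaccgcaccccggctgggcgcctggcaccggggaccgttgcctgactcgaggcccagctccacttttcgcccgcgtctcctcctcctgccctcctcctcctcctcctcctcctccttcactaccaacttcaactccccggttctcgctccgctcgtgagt
Emcn: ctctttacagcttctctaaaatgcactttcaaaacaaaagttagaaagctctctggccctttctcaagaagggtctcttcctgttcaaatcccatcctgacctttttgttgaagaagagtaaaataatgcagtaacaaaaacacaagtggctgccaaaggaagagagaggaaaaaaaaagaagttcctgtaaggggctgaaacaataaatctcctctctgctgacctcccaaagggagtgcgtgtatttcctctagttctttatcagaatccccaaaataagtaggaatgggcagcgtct
The Sdc4 window was 67.7% GC and held 4 GC boxes (GGGCGG), 1 ETS core (CCGGAA) and 1 NF-kB-type match (GGGNNTTCC). The ETS core overlaps the NF-kB-type match and the GC box beside it. The Gpc4 window was 66.7% GC with 1 GC box, and the Emcn window was 41.0% GC with no match to any of the 7 motifs. Searched on both strands, the GC box was in 35.7% of 32851 RefSeq windows, the ETS core in 14.9% and the NF-kB-type motif in 5.82%. The other motifs were the TATA box TATAAA (13.6% of windows), the E-box CACGTG (7.15%), the AP-1 site TGANTCA (7.81%) and the GATA site AGATAA (11.2%). The Sdc3 window (77.7% GC) held 3 GC boxes and that of Hs6st1 (78.0% GC) held 7. These matches describe letters and do not show binding.

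Among the 10 members, Sdc4 was higher in old than in young samples and no member fell. Of the 9 members with enough reads to test, 1 rose and 0 fell at a limma adjusted p of 0.05, against 3.73% of 12777 genes that rose and 3.21% that fell. By edgeR, 1 rose, against 3.47% of genes, and 0 fell. At an unadjusted p under 0.05, 1 of 9 members passed, against 23.8% of genes. The log2 fold was negative in 7 of the 9 and had a median of -0.18, beside -0.01 over all genes. No member had old and young samples without overlap, which 4.29% of genes had.

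**Figure D1:**
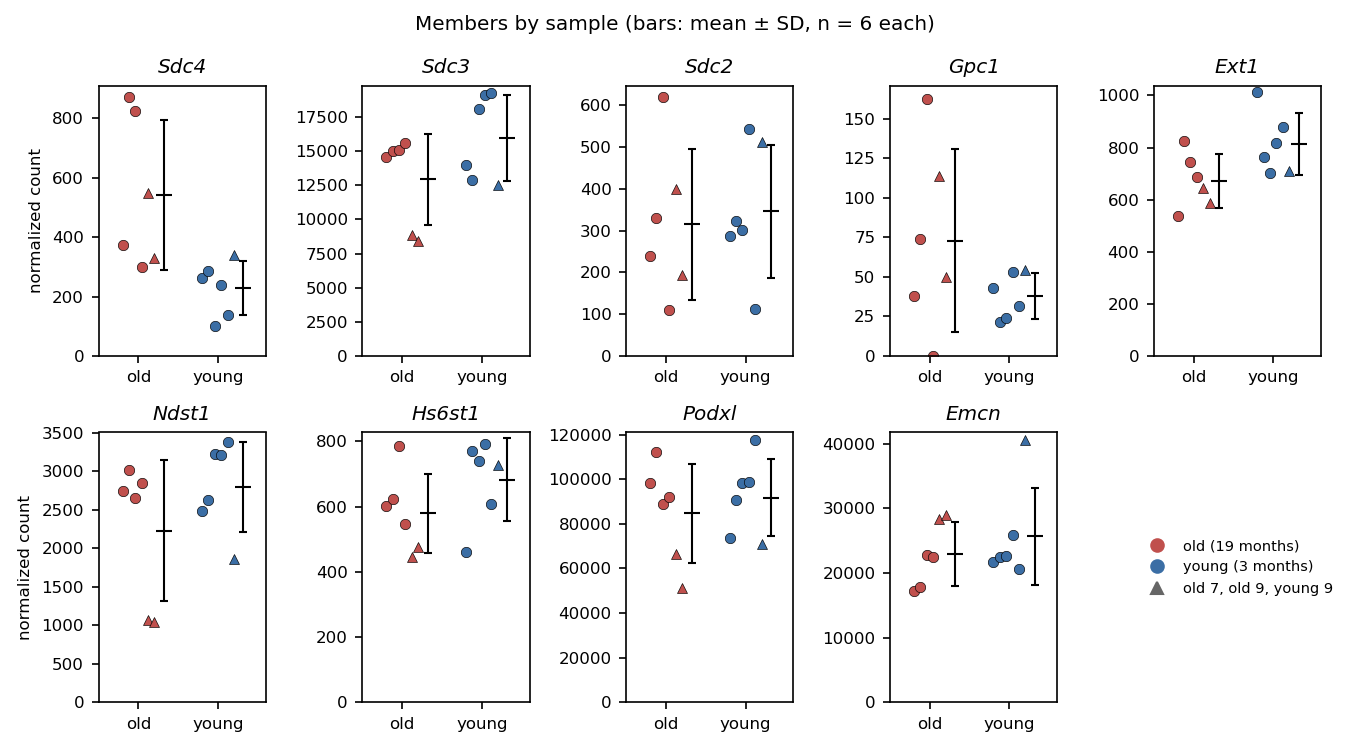
Normalized count of the 9 members with reads in every old sample (left) and young sample (right), with the mean and SD of each age (n = 6 each). Triangles are old 7, old 9 and young 9; Sdc4 lies at 301 to 871 in old and 101 to 339 in young samples, and Has2, at 0 throughout, is not drawn.

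Sdc4, a syndecan of focal adhesions that binds fibroblast growth factors and integrin partners, had a lowest, median and highest normalized count of 301, 461 and 871 in old samples, against 101, 250 and 339 in young samples. All 6 old samples lay above the young median, old 2 and old 3 were the highest and young 3 the lowest, and the ages overlapped because old 4 (301) and old 9 (329) lay below young 9 (339). Old samples averaged 541 ± 253 and young samples 227 ± 91.0 (SD, n = 6 each). The fold was 2.36 (95% confidence interval 1.43 to 3.87; log2 fold 1.24, SE 0.34, limma adjusted p = 0.0379). The exact two-sided permutation test gave p = 0.00649, edgeR an adjusted p of 0.0378 and DESeq2 an adjusted p of 0.00393. The rise rested on 88 to 755 reads per sample. It passed in 20 of 33 alternative settings. The limma adjusted p was 0.0849 without old 2, 0.0702 without old 3, 0.0711 without old 7, 0.0803 without young 3, 0.0651 without young 4 and 0.0876 without young 5. With any 1 sample left out, the log2 fold stayed between 1.03 and 1.38. With old 7, old 9 and young 9 left out, Sdc4 kept a log2 fold of 1.48 (adjusted p = 0.0388).

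Astrocyte markers moved with Sdc4. The summed count of 10 astrocyte markers was 11543 to 44550 (median 21858) in old samples and 6901 to 37301 (median 8584) in young samples (exact permutation p = 0.0519, and 0.0866 adjusted over the marker sums). All 10 had a positive log2 fold (median 1.85), none was at 0, and 1, Aldoc, passed (log2 fold 2.22, limma adjusted p = 0.0447). The samples with the largest astrocyte sums were old 3 (44550), young 9 (37301), old 7 (28721) and old 2 (27288), among which were the 3 old samples with the most Sdc4 and the young sample with the most. The order was not the same throughout, since Sdc4 in young 9 (339) was below that in old 1 (372), whose astrocyte sum was 16428. With the astrocyte score in the limma model, the Sdc4 log2 fold was 0.42 (adjusted p = 0.667). Their part in the Sdc4 difference was not tested. Of 10360 genes with a mean of at least 100, the 3 whose log2 values were most like Sdc4 over the 12 samples were Ramp1, a receptor-modifying protein, Slc27a1, a fatty acid transporter, and Gpr37l1, a receptor known from astrocytes. Their Pearson r was 0.94, 0.94 and 0.93. Without old 2 and young 3, the samples farthest apart, it was 0.92, 0.94 and 0.92. These samples share libraries and differ in age, so the coefficients describe likeness and nothing more. None of the 3 passed the test of age, with limma adjusted p-values of 0.0633, 0.0733 and 0.0564.

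**Figure D2:**
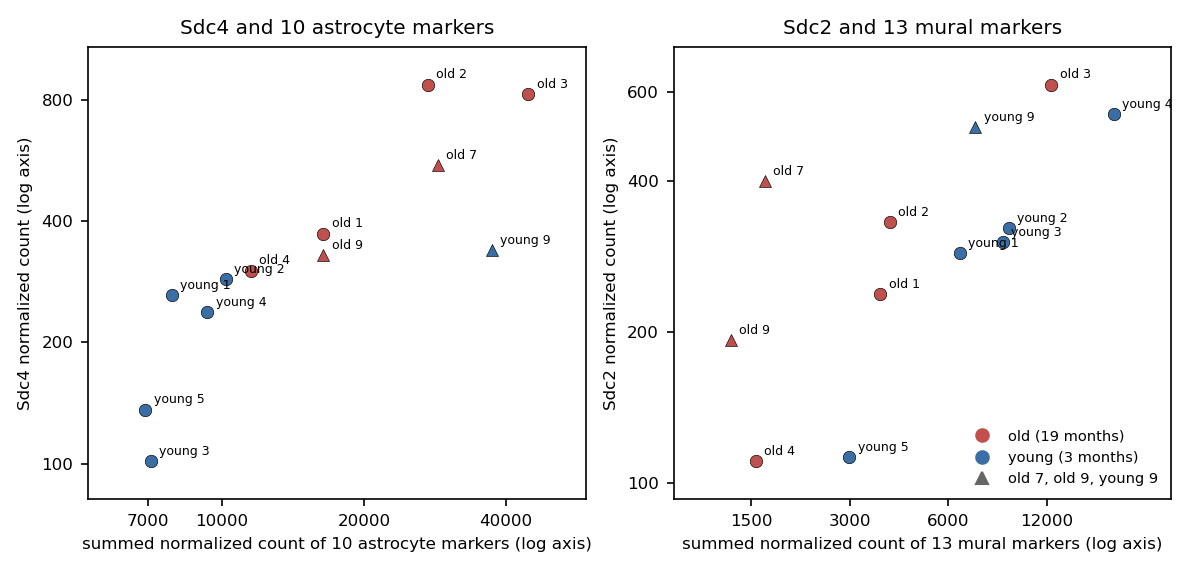
Each point is a sample. The left panel sets Sdc4 against the summed count of 10 astrocyte markers and the right panel Sdc2 against the sum of 13 mural markers, on log axes. Young 3 and young 5 are lowest for Sdc4, at 101 and 136, and have the lowest astrocyte sums.

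Sdc3, the main syndecan of these samples, was 8416, 14793 and 15639 in old samples and 12498, 16027 and 19241 in young samples (lowest, median, highest). All 6 old samples lay below the young median, and the lowest were old 9 and old 7. Means were 12936 ± 3335 in old and 15968 ± 3180 in young samples, a fold of 0.80 (0.61 to 1.04) that did not pass (limma adjusted p = 0.287). Without old 7, old 9 and young 9 the means were 15075 ± 440 in 4 old and 16662 ± 3005 in 5 young samples (log2 fold -0.12, limma adjusted p = 0.613). Sdc2, a syndecan of mesenchymal and vascular cells, had 110, 285 and 621 in old and 113, 312 and 543 in young samples. Old 4 and young 5 were low, old 3 and young 4 high, and the ages overlapped throughout (fold 0.88, interval 0.48 to 1.62, limma adjusted p = 0.827). The 13 markers of mural cells, which wrap vessels, summed to 1305 to 12371 (median 2687) in old samples and 2991 to 19227 (median 8034) in young samples (exact permutation p = 0.0455, and 0.0866 adjusted over the marker sums). All 12 tested had negative log2 folds (median -1.36), and 7 had an unadjusted limma p under 0.05. Past the threshold, 2 fell (Acta2 and Myh11) and 0 rose. The highest mural sums were in young 4 and old 3, and with the mural score in the model the Sdc2 log2 fold was 0.72. Over the 33 alternative settings the Sdc2 log2 fold ran from -1.19 to 0.72, and it passed in 0 of them. The part of mural cells in the Sdc2 values was not tested.

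Sdc3 made up most of the summed syndecan level, counted per kilobase of the longest coding transcript. Sdc4 was 7.46 ± 2.86% of it in old samples and 2.89 ± 1.53% in young samples, with ranges of 3.64 to 10.4% and 1.08 to 4.85% that overlap. Sdc3 was 87.0 ± 4.09% in old and 93.0 ± 2.69% in young samples. The summed syndecan level per kilobase was 2981 ± 725 in old samples, against 3442 ± 609 in young ones (SD, n = 6 each). These shares were not tested, since they follow from the values above.

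Gpc1, a lipid-anchored glypican, was 0, 61.7 and 163 in old samples and 21.3, 37.4 and 54.5 in young samples. Old 4 had 0 reads and old 3 the highest normalized count, so the log2 fold was 0.03 while the ratio of means was 1.92. The log2 fold did not pass (interval of the fold 0.25 to 4.12, limma adjusted p = 0.989), and the ratio of means was not tested. Without old 4 the log2 fold was 1.08, with a limma adjusted p of 0.132. By edgeR the log2 fold was 0.95 with an adjusted p of 0.474. Gpc1 was the least abundant member with reads, at 0 to 148 per sample.

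The heparan sulfate enzymes did not pass, and all 3 had negative log2 folds. Ext1, which polymerises the chain, was 539, 665 and 823 in old and 702, 791 and 1013 in young samples. Of the old samples, 5 lay below the young median, and old 2 did not. The fold was 0.82 (0.67 to 1.00), with an exact permutation p of 0.0433 and a limma adjusted p of 0.220. Ndst1, which removes acetyl groups and adds sulfate to glucosamine, was 1045, 2700 and 3020 in old and 1865, 2917 and 3385 in young samples. Old 7 (1067) and old 9 (1045) were far below the others, and young 9 (1865) was the lowest young sample. With them the fold was 0.74 (0.49 to 1.11, limma adjusted p = 0.353). Without them the means were 2817 ± 156 in 4 old and 2985 ± 406 in 5 young samples (log2 fold -0.07, limma adjusted p = 0.751). The annotation places Rps14 on the opposite strand where it overlaps Ndst1. The counting's use of strand is not given in the sources used here, so reads in the overlap cannot be told apart. Antisense genes also overlap Sdc3, Gpc1 and Hs6st1. Hs6st1, which adds sulfate at position 6 of glucosamine, was 444, 574 and 785 in old and 461, 733 and 792 in young samples. The ages overlapped, and the fold was 0.85 (0.66 to 1.09, limma adjusted p = 0.408).

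**Figure D3:**
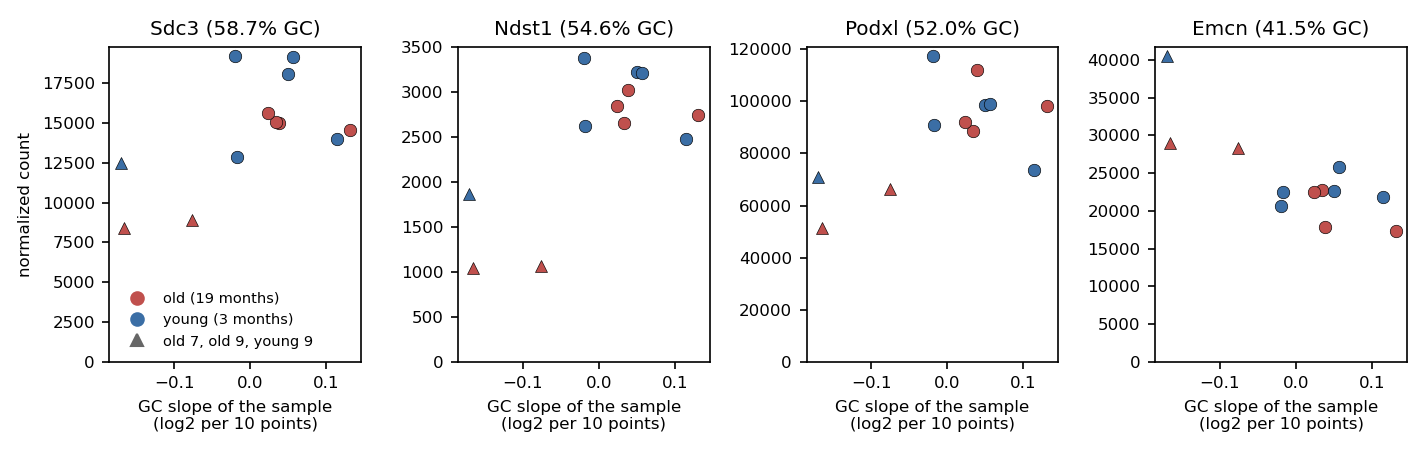
Normalized counts of Sdc3, Ndst1, Podxl and Emcn in each sample (vertical axes) are set against the slope of that sample's log2 values on transcript GC content, per 10 points (horizontal axes). Old 7, old 9 and young 9 have the lowest slopes, and in them Ndst1 is 1067, 1045 and 1865.

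Podxl and Emcn, the most abundant members, did not pass. Podxl, a sialomucin of the luminal endothelial surface, was 51309, 90395 and 112118 in old and 71113, 94613 and 117592 in young samples. Old 9 and old 7 were lowest, and the ages overlapped (fold 0.91, interval 0.69 to 1.19, limma adjusted p = 0.686). Without old 7, old 9 and young 9 the means were 97819 ± 10336 in old and 95904 ± 15827 in young samples (log2 fold 0.04, limma adjusted p = 0.910). Emcn, a sialomucin of capillary and venous endothelium, was 17270, 22652 and 29006 in old and 20653, 22598 and 40560 in young samples. Young 9, old 9 and old 7 were highest, so Emcn ran opposite to Podxl and Ndst1 in these samples. The fold was 0.90 (0.70 to 1.17, limma adjusted p = 0.639), and without them the log2 fold was -0.18 (limma adjusted p = 0.360). Podxl, Sdc3 and Ndst1 transcripts are 52.0%, 58.7% and 54.6% GC, and Emcn is 41.5% GC. Gpc1 and Hs6st1 transcripts are 59.1% and 57.7% GC, but in young 9 Gpc1 had its highest young value (54.5) and Hs6st1 (728) was not low. Old 7 (444) and old 9 (476) had the lowest Hs6st1 values among old samples. Young 1 (461), with a GC slope of 0.11, lay between them. Gpc1 in old 7 (114) was the second highest. The part of GC content in these values was not tested.

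Has2, which makes long hyaluronan chains, had 0 reads in all 12 samples. A floor of 3 reads per library equals 2.30 to 3.67 normalized counts. Has1 had 2 reads in all, and Has3 had 59 reads, too few to test. Per kilobase, the members ranked Podxl, Emcn, Sdc3, Ndst1, Hs6st1, Sdc4, Ext1, Sdc2 and Gpc1 by their mean over all samples, from 16415 for Podxl to 13.3 for Gpc1. Podxl ranked 74 of 11804 genes with a transcript length, Emcn 146 and Sdc3 764. Neighbours in this order lay within their spread for Ext1 and Sdc2, at 87.5 ± 13.5 and 89.4 ± 51.3 per kilobase in old samples and 106 ± 15.4 and 98.2 ± 45.1 in young ones. Hs6st1 and Sdc4 were 156 ± 32.8 and 220 ± 103 per kilobase in old samples, within their spread, and 184 ± 33.8 and 92.4 ± 37.0 in young ones, where Hs6st1 was higher. In young samples Sdc4 also lay below Ext1 and Sdc2, within their spread, so the place of Sdc4 in the order depends on age.

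**Figure D4:**
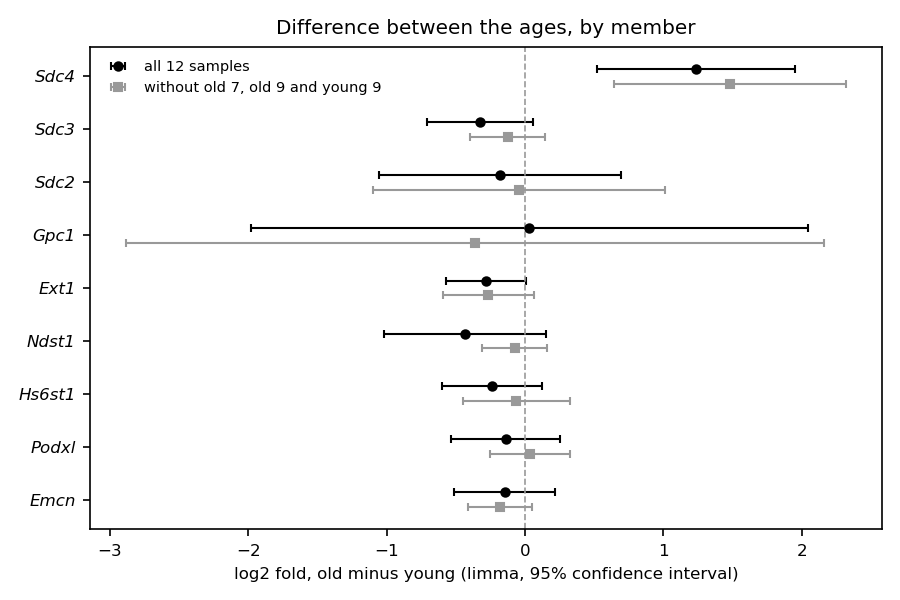
Log2 fold, old over young, of the 9 tested members with 95% confidence intervals from limma, over all 12 samples (black) and without old 7, old 9 and young 9 (grey). With all samples, the Sdc4 interval runs from 0.52 to 1.95 and the intervals of the other 8 members include 0.

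Other genes of the pathway were taken from 10 lists chosen with earlier results known. Over all 12777 genes, 3.73% rose and 3.21% fell by limma. The counts in these short lists, of 7 to 14 tested genes, were not tested against those shares. Among 14 heparan sulfate core proteins, 2 rose and 0 fell (median log2 fold 0.31). Besides Sdc4, Gpc4, a glypican, rose: its samples were 460, 580 and 643 in old and 265, 366 and 435 in young (log2 fold 0.69, SE 0.15, limma adjusted p = 0.0101). Every old sample exceeded every young one, and 4.29% of all genes had no overlap in either direction. Sdc1, which is on the list but outside the naming rule, was 223 ± 90.3 in old and 127 ± 67.4 in young samples (log2 fold 0.87, limma adjusted p = 0.184). Of 10 linkage and polymerisation enzymes tested of 11 listed, 0 rose and 0 fell by limma, edgeR or DESeq2, 2 had an unadjusted p under 0.05, and the median log2 fold was -0.13. Xylt1, which adds the first sugar, had the smallest p, at 30.7 ± 26.0 in old and 5.69 ± 7.62 in young samples (limma adjusted p = 0.0656). Of 10 modification enzymes tested of 18, 0 rose and 0 fell by limma and edgeR while 1 rose by DESeq2, with a median of -0.06 and 2 at an unadjusted p under 0.05. Glce, which turns glucuronic into iduronic acid, was 1689 ± 346 in old and 1292 ± 146 in young samples (limma adjusted p = 0.120). Ndst4, Hs6st3, Hs3st5 and Hs3st6 were at 0 in all samples.

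Among 8 suppliers of sulfate and sugar donors, 1 rose and 0 fell (median log2 fold 0.14). Papss2, which makes the sulfate donor PAPS, was 1437, 2261 and 3668 in old and 876, 1179 and 1712 in young samples. Old 7 was the highest, and old 4 was the old sample below young 2 (log2 fold 0.92, SE 0.20, limma adjusted p = 0.0104). Of 8 degradation genes tested of 10, 1 rose and 0 fell. Naglu, a lysosomal enzyme of heparan sulfate breakdown, averaged 1167 ± 189 in old and 828 ± 132 in young samples (log2 fold 0.49, limma adjusted p = 0.0437). Its call ended in 10 of 12 settings that left out 1 sample, all but old 3 and young 1, with adjusted p-values of 0.0576 to 0.0975 and log2 folds of 0.43 to 0.51, and without old 7, old 9 and young 9 the limma adjusted p was 0.0942. Of 7 hyaluronan genes tested of 14, 0 rose and 0 fell by limma, edgeR or DESeq2, and 1 had an unadjusted p under 0.05. Cd44, the hyaluronan receptor, was 2.79 ± 6.84 in old and 20.8 ± 15.9 in young samples (log2 fold -3.05, limma adjusted p = 0.119). It passed in 1 of the settings that left out a sample, young 2 (limma adjusted p = 0.0452).

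Of 12 sialomucin and O-glycan genes tested of 16, 1 rose and 0 fell by limma and edgeR, while 1 rose and 1 fell by DESeq2. The log2 fold was negative in 10 of the 12 (median -0.15). Gcnt1, which branches O-linked sugars, averaged 2007 ± 662 in old and 997 ± 385 in young samples (log2 fold 1.03, limma adjusted p = 0.0226). The limma adjusted p was 0.0563 without old 2, 0.0501 without old 7, 0.0546 without young 3, 0.0573 without young 4 and 0.0794 without old 7, old 9 and young 9. With any 1 sample left out, the log2 fold stayed between 0.90 and 1.19. Among 9 tested shedding genes of 10, 1 rose and 2 fell, against 3.73% and 3.21% of all genes. Mmp15, a membrane-bound metalloproteinase, was 786, 1543 and 1859 in old and 2930, 4307 and 4659 in young samples (log2 fold -1.50, SE 0.18, limma adjusted p = 0.000393). Adam17, a sheddase of syndecans and adhesion molecules, was 2961, 3746 and 3914 in old and 5135, 6035 and 7488 in young samples (log2 fold -0.81, SE 0.12, limma adjusted p = 0.000885). Timp2, a metalloproteinase inhibitor, was 3388, 4626 and 6128 in old and 819, 1694 and 2358 in young samples (log2 fold 1.57, SE 0.25, limma adjusted p = 0.00174). For Mmp15, Adam17 and Timp2 the ages did not overlap, as in 4.29% of all genes. The summed count of 7 capillary markers was 150431 to 218286 in old and 224535 to 280654 in young samples (exact permutation p = 0.00216, the smallest possible here, and 0.0216 adjusted over the marker sums), and 3 of the 7 fell. Mmp15 passed in all 33 alternative settings, with a largest adjusted p of 0.0196. The capillary sums of the ages did not overlap, so the capillary score is hard to tell apart from age. With it in the limma model, 8 genes rose and 11 fell among all 12777. Adam17 then had a log2 fold of -0.90 (limma adjusted p = 0.132), close to its value without the score. The log2 folds of Timp2 and Gcnt1 were then 0.20 and 0.0886 (limma adjusted p = 0.781 and 0.933), and those of Gpc4 and Papss2 were 0.50 and 0.48 (limma adjusted p = 0.413 and 0.547). With the mural score Gpc4 and Papss2 had log2 folds of 0.73 and 0.95 (limma adjusted p = 0.0674 and 0.0716), and with the astrocyte score 0.66 and 0.94 (0.122 and 0.0931), close to their values without a score. Gcnt1 had 0.87 and 1.19 with these scores (limma adjusted p = 0.197 and 0.0954). Of the other marker sums, the arterial sum was 34781 to 50260 in old and 27263 to 40445 in young samples (exact permutation p = 0.0238, adjusted 0.0595). Of its 9 markers, 6 had positive and 3 negative log2 folds, and 2, Gkn3 and Bmx, rose. The microglia sum was 1516 to 2279 in old and 1341 to 1680 in young samples (exact permutation p = 0.0152, adjusted 0.0595). The venous sum had an exact permutation p of 0.998. Of its 7 markers, 6 had negative log2 folds, and 2 of these, Aplnr and Slc38a5, fell. The other marker, Vwf, was 29015 ± 9942 in old and 18504 ± 4097 in young samples (log2 fold 0.59, limma adjusted p = 0.132). The part of these markers in the differences was not tested.

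**Figure D5:**
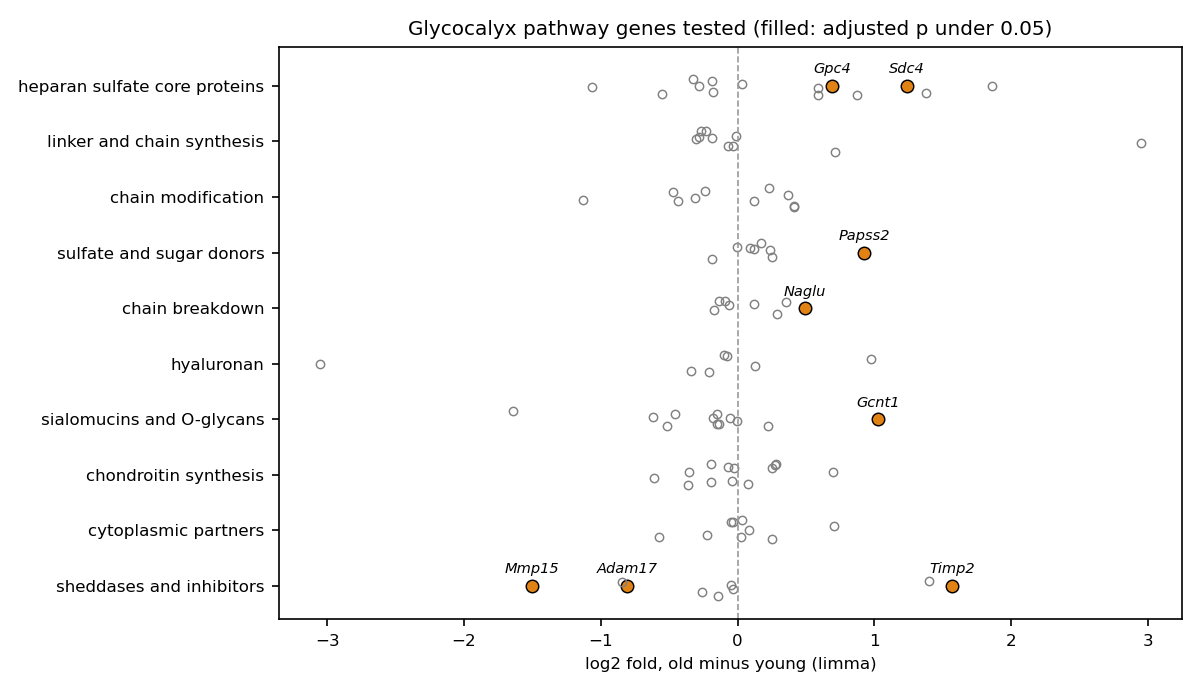
Log2 fold, old over young, of the tested genes of each pathway list, with genes past the limma threshold filled and named. Mmp15 and Adam17 lie below 0, at -1.50 and -0.81, and Timp2 above, at 1.57.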

How the data were processed

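RNA-seq was made from 12 samples of sorted brain endothelial cells, 6 old and 6 young. Build mm9 and the tools STAR 2.4.2a, FastQC 0.11.2, R 3.2.2 and Cuffdiff 2.2.1 appear, with no role, in the submitters' processing notes; how reads were counted is not given in the sources used here. Deposited by the authors was a signal per gene, the normalized counts; each column was whole reads over a size factor (100% of values whole within 0.001), and these factors equalled median-of-ratios factors in 12 of 12 samples. Here, log2(value + 1) was fitted with limma 3.58.1 in R 4.3.3 for genes with a mean of at least 10 (12777). Age was the only term, with Benjamini-Hochberg adjustment and a threshold of 0.05. For low genes the fold can differ from the ratio of means either way, as for Xylt1 (7.72 against 5.39) and Gpc1 (1.02 against 1.92). edgeR 4.0.16 and DESeq2 1.42.0 were run on the recovered reads, and single values were tested over 924 relabellings. The method was tested on simulated data. Intervals of folds come from the spread between samples; the floor of 3 reads covers counting error only. Transcript lengths and GC content are from GENCODE's longest coding transcript, on a later build. Named genes were all members, per list up to 3 that passed or that with the smallest p, and the 3 genes most like Sdc4. Members and lists were chosen with earlier results of these data known. Settings for GC slope and for edgeR without 3 samples were added after seeing the data.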

Additional observations from a re-analysis of the deposited data

Results flagged for a closer look

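Of 42 groups checked, 5 held a sample far from the other 5 of its age on the log2 scale, a gap that chance gives in about 5% of groups. Gpc1 was 0 in old 4, against 38 to 163 in the other old samples. Emcn was 40560 in young 9, against 20653 to 25837 in the other young samples. Cd44 was 16.8 in old 1 and 0 in the other old samples. Mmp15 was 786 in old 9, against 1399 to 1859 in the other old samples, and 2930 in young 9, against 3980 to 4659 in the other young samples. Old 9 and young 9 are among the samples whose values fell with transcript GC content; its part here was not tested.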

How the results depend on the processing

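Over 33 alternative settings, Mmp15 passed in all, Gpc4 and Papss2 in 30 and Sdc4 in 20. The count of members that rose was 0, and Sdc4 missed the threshold, with no filter on low values (log2 fold 1.24, adjusted p = 0.0589), limma-voom (1.19, 0.0553), no mean-variance trend (1.24, 0.0719), the capillary score (1.35, 0.361) or the astrocyte score, where its log2 fold was 0.42 (0.667); leaving out single samples gave 0 to 1. Genes that rose, 477 in the analysis above, were 746 by DESeq2, 765 with array weights, and 155, 145 and 8 with the mural, astrocyte and capillary scores; genes that fell, 410 above, were 661, 615, 84, 88 and 11, and 645 with the GC slope as covariate. Single samples left out gave 310 to 696 and 243 to 529, lowest without young 4. Whether title numbers pair the samples was not settled. Same-numbered samples correlated at -0.16 to 0.10 once each age mean was subtracted. Their GC slopes were -0.17 and -0.17 for number 9, 0.13 and 0.11 for 1, and 0.04 and -0.02 for 2 (old and young). For 3 they were 0.03 and 0.05, and for 4 they were 0.02 and 0.06. With the number as a replicate block over 10 samples, 299 rose, 311 fell and 0 members passed (Sdc4 log2 fold 1.08, limma adjusted p = 0.164); without the block in those samples, 261, 211 and 0 (limma adjusted p = 0.141). Signs changed in these members, none past the threshold, and in Naglu. Gpc1 was -0.12 with a pseudocount of 0.5, -0.0887 by quantile normalization, -0.23 by voom, -0.0430 with array weights, -0.32 with or without the block, -1.65 and -0.54 with astrocyte and capillary scores, -0.36 with old 7, old 9 and young 9 left out, -0.17 with a term for them, and -0.39 to 1.08 with single samples left out. Sdc2 was 0.72 and 0.0325 with mural and capillary scores, 0.0608 by edgeR without the 3 samples, and -0.47 to 0.0814 with single samples left out. Podxl was 0.0285 and 0.0459 with mural and astrocyte scores, and 0.0389 by limma and 0.0369 by edgeR without the 3 samples. Hs6st1 was 0.0758 with the mural score; Emcn was 0.67 and Naglu -0.0301 with the capillary score. The causes were not tested. Few reads limit Cd44, Xylt1 and Gpc1, with 148, 218 and 672 in all.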

Other observations

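Of 13 chondroitin sulfate synthesis genes tested of 16, 0 rose and 0 fell by limma, edgeR or DESeq2, and 1 had an unadjusted p under 0.05. Csgalnact1, which starts the chain, averaged 4000 ± 418 in old samples, against 3315 ± 477 in young ones (SD, n = 6 each; log2 fold 0.28, limma adjusted p = 0.133). Of 9 cytoplasmic partners of syndecans and podocalyxin, 0 rose and 0 fell by the same tools, and 1 had an unadjusted p under 0.05. Slc9a3r1, a scaffold that binds podocalyxin, averaged 3187 ± 482 in old and 2667 ± 249 in young samples (log2 fold 0.25, limma adjusted p = 0.178).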
